A study of Mus musculus with 22 samples.

Results

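The genes described here are neuronal and synaptic genes measured in mouse embryonic stem cells (ESCs), a cell type in which most of them are kept low. They were chosen by name, from a list of 36 symbols that holds the repressor Rest, its partner Rcor1 and genes of neurosecretory granules, synaptic vesicles, the neuronal cytoskeleton, cell adhesion and neuronal RNA binding. The list was drawn up with earlier results of these data known. Shares of its genes set beside those of all genes therefore describe the list and are not a test of it. The table of deposited values held 30 of the 36 among its 18487 genes. Snap25, Chgb, Scg2, Dcx, Cplx2 and Rab3c were not in it, so their expression was not analysed here. Of the 30, 29 passed the filter on low values (at least 10 in at least 2 libraries) and were tested, and Syt1 did not pass it.

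RNA enriched with oligo-dT beads was sequenced from E14, a mouse ESC line, after treatment with 1 of 10 compounds or in the group labelled NC. The label NC names no compound, unlike those of the other groups. NC was therefore the reference, and the same NC libraries enter all 10 comparisons. Each of the 11 groups had 2 libraries, numbered 1 and 2, which made 22. The labels gave no dose, no exposure time and no word on whether the 2 libraries came from separate cultures, so p-values measure only the spread between libraries. The study grew its ESCs in serum with LIF and its text does not mention these compounds. Valproate inhibits histone deacetylases, Bromosporine binds bromodomains, and CPTH2 and Garcinol inhibit histone acetyltransferases. DZNep blocks the breakdown of S-adenosylhomocysteine and thereby lowers methylation by many methyltransferases. Chaetocin inhibits histone lysine methyltransferases, UNC0379 inhibits SETD8, MS023 inhibits type I arginine methyltransferases, and IOX1 inhibits 2-oxoglutarate oxygenases that include histone demethylases. For OICR the label is not a full compound name, and its action is not described here. The comparisons ask which of these genes change when enzymes or readers of chromatin marks are blocked.

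REST is a zinc finger protein that binds a long DNA element near many neuronal genes and recruits corepressors, RCOR1 (CoREST) among them, that carry histone deacetylases and the demethylase LSD1. In stem cells and in cells outside the nervous system this holds down genes for vesicle proteins, granule proteins and neurofilaments. As neurons form, REST falls and these genes rise. Because Valproate blocks deacetylases, listed targets of REST were followed with particular care in the Valproate libraries. The list of targets among the genes was written from general knowledge, not from binding data in these cells, and 15 of its 19 genes were tested.

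Promoter windows from RefSeq (GRCm38.p6), each with 250 bases before and 50 after a start site, were at hand for 26 of the 36 genes and gave 39 windows. The bases before the start are shown for Map2, Stmn3 and Cplx1, the genes that changed with Valproate, to let their make-up be compared. They lie at chr1:66175079-66175272 (plus strand), chr2:181314501-181314750 (minus strand) and chr5:108550028-108550277 (minus strand). They run to the first start that RefSeq or GENCODE gives. Capitals mark a match to an arm of the REST element.
Map2: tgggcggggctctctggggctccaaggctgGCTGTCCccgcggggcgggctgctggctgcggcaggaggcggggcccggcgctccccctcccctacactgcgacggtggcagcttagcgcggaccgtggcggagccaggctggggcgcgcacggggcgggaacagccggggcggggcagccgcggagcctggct
Stmn3: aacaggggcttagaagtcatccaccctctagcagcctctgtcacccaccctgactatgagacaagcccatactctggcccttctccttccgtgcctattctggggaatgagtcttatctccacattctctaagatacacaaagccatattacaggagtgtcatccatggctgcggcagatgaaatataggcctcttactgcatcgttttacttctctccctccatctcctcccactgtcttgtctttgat
Cplx1: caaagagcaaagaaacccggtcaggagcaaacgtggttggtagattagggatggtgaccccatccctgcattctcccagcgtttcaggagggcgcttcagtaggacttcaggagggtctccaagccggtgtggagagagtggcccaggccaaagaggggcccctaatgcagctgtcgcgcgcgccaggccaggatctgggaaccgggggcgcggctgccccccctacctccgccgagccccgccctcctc
The whole Map2 window had 77.7% G and C with 37 CpG, the Cplx1 window 67.0% with 24, and the Stmn3 window 49.7% with 6. The median of the 39 windows was 57.3% G and C with 16 CpG, and that of all 32851 windows 52.7% with 7.

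The element that REST binds has a left arm, searched here as CAGCACC, and a right arm, searched as GGACAGC, each on both strands. The left arm was found in 7.14% of all windows and in those of 6 of the genes (Celsr3, Chgb, Scg2, Syn1, Tubb3 and Unc13a). The right arm was found in 6.56% of all windows and in those of 4 of the genes (Map2, Scg2, Tubb3 and Unc13a). The arms joined with 2 bases between them, AGCACCNNGGACAG, which overlaps both arms, were found in 0.0517% of all windows and in 0 windows of the genes. In the Scg2 window the right and left arms lay directly next to each other, a spacing that the joined form does not cover. A match describes these letters only, and sites outside the windows were not searched. Matches of 4 measured REST targets (for Syn1, 1 of its 2) are shown with 11 bases on either side, in the direction of the gene and with the arm in capitals, since both arms occur near the Unc13a and Tubb3 starts without lying side by side in the joined form.
Unc13a left arm: tccgcgcccccGGTGCTGaagcgacatgg
Unc13a right arm: gcgcgtcaggcGCTGTCCgcgcccccggt
Tubb3 left arm: atctcggtgccGGTGCTGatgctgcagag
Tubb3 right arm: ctccgcagcctGCTGTCCgcctgcctttt
Celsr3 left arm: ccagctccgttCAGCACCgtgggcagcac
Syn1 left arm: actgtcggattCAGCACCgcggtcagagc
These stretches lie at chr8:71671718-71671746, chr8:71671733-71671761, chr8:123411421-123411449, chr8:123411553-123411581, chr9:108825909-108825937 and chrX:20921131-20921159, in that order.

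The values are normalised read counts, scaled so that every library has nearly the same distribution (median 409 in each), and the depth of each library is not known here. Libraries summed to 38403767 to 38419709. All 10 stem cell markers were measured in every group, and Pou5f1 was between 25663 (Valproate, number 1) and 39262 (OICR, number 2). The summed stem cell markers were 206319 to 207561 in NC, 227712 to 232754 with Valproate, 270864 to 280153 with DZNep and 218006 to 232876 with Bromosporine. The markers did not move together with DZNep. Both DZNep libraries lay above NC for 4 of the 10 and below it for 2, beside 26.5% and 32.4% of all genes. Nanog went from 44793 and 59405 to 92251 and 123367, and Tdgf1 from 25722 and 15640 to 11541 and 8477. Of 10 neural progenitor markers 4 were in the table, and their sum was 2270 to 2389 in NC, 1921 to 1941 with Valproate, 972 to 1369 with DZNep and 2026 to 2074 with Bromosporine. Of 6 glial markers 4 were in the table, with sums of 422 to 619 in NC, 822 to 831 with Valproate, 395 to 408 with DZNep and 594 to 675 with Bromosporine. All 7 fibroblast markers were in the table, and 2 of them, Lum and Dcn, were at 0 in NC. Their sums were 733 to 741 in NC, 754 to 1306 with Valproate, 1160 to 1222 with DZNep and 56 to 82 with Bromosporine. The largest single part of the NC and DZNep sums was Postn, a gene listed at 0 in some libraries. It was at 474 and 559 in NC, 677 and 819 with DZNep, 658 and 0 with Valproate and 0 and 0 with Bromosporine. The part of other cell types in the results was not tested.

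In NC the genes spanned a wide range per kilobase of their longest annotated transcript. Stmn2, whose product destabilises microtubules in growth cones, had the highest level per kilobase (903 and 1749), and the neuronal tubulin Tubb3 came next (507 and 1483). Their ranges overlapped each other. Rest (830.5 and 727.3) came after them, within the range of Tubb3 and below both values of Stmn2. The neurofilament gene Nefl (281.1 and 325.1) and Rcor1 (288.2 and 278.9) followed, and they overlapped too. At the low end were the granule gene Scg3 (1.678 and 6.292 per kilobase), the adhesion gene L1cam (1.951 and 3.316) and Reln (0.8548 and 2.051), whose ranges overlapped. Sntg1, at 0.4092 in both NC libraries, was the lowest of the tested genes. Syt1, the calcium sensor of synaptic vesicles, was at 0 in 18 of the 22 libraries. Its other values were 11 and 5 with Valproate, 6 in IOX1 number 2 and 2 in DZNep number 1.

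With Valproate, Map2 rose and Cplx1 and Stmn3 fell. Map2, on chromosome 1 (GENCODE M21, mm10, 66175273 to 66442583, plus strand), encodes a microtubule-binding protein of dendrites. NC libraries had 108 and 73 and Valproate libraries 420 and 339, so that the groups lay far apart. It was 4.21-fold higher, a log2 change of 2.07 (SE 0.22, adjusted p = 0.000116, limma with Benjamini-Hochberg adjustment over 17275 genes). Both Valproate libraries were above all 20 other libraries, whose highest Map2 value was 200, in Bromosporine number 1.

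Cplx1, on chromosome 5 (108518554 to 108550024, minus strand), encodes complexin 1, which clamps and primes vesicle fusion. It was at 274 and 243 in NC, against 63 and 61 with Valproate, with no overlap. The fall was 4.11-fold, a log2 change of -2.04 (SE 0.22, adjusted p = 0.000149, limma, Benjamini-Hochberg). Stmn3, on chromosome 2 (181306459 to 181314500, minus strand), is a stathmin of neurons related to Stmn2. It was at 83 and 201 in NC, against 45 and 47 with Valproate, below the values of all 20 other libraries. Its log2 change was -1.47 (SE 0.38, adjusted p = 0.0266, limma, Benjamini-Hochberg), and the NC libraries differed more from each other than the Valproate libraries did. Leaving out NC number 2 gave -0.84 (adjusted p = 0.253, limma, Benjamini-Hochberg), and leaving out Valproate number 1 or 2 gave adjusted p = 0.121 and 0.0807, so the Stmn3 call rests on these libraries. In bulk RNA, fewer cells that express a gene and less of its RNA per cell cannot be told apart.

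**Figure D1:**
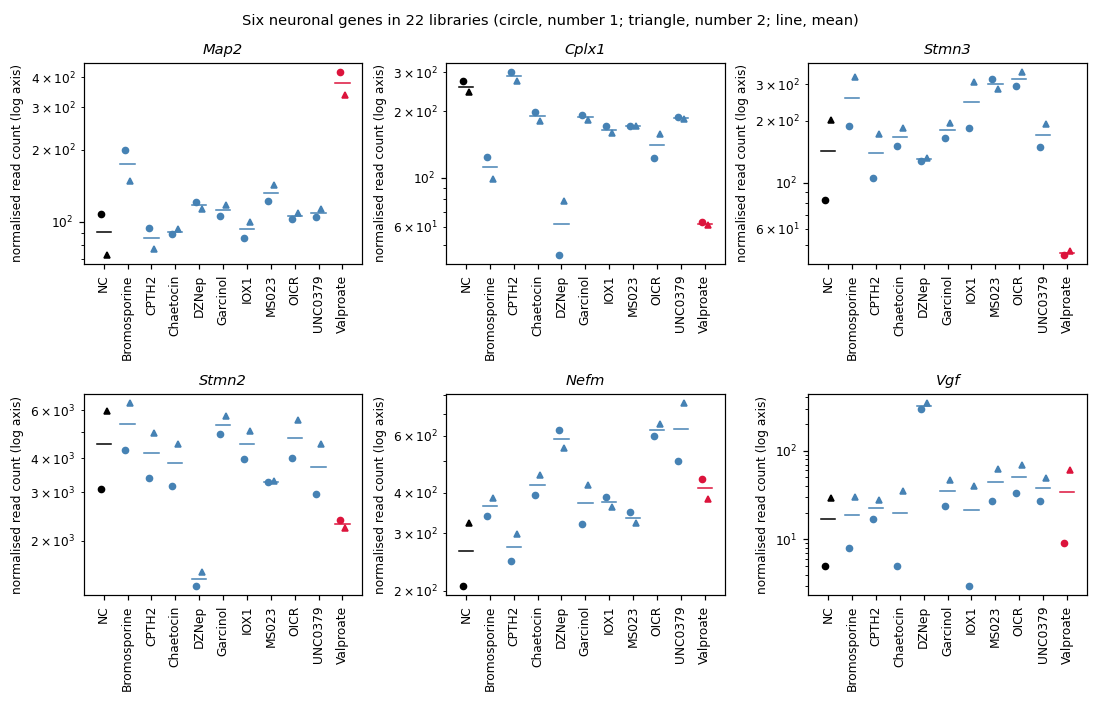
Normalised read counts (log axis) of Map2, Cplx1, Stmn3, Stmn2, Nefm and Vgf in the 11 groups, with a circle for number 1, a triangle for number 2 and a line at the mean, NC in black and Valproate in red. The Valproate libraries stand alone at 420 and 339 for Map2, Cplx1 is at 45 to 79 only with Valproate and DZNep, and Vgf reaches 294 and 344 only with DZNep.

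In a fit of the Valproate and NC libraries alone, Map2 (adjusted p = 0.149), Cplx1 (adjusted p = 0.122) and Stmn3 (adjusted p = 0.311) did not pass the test of limma. These 3 genes were 10.3% of the 29 tested, and 5.28% of all tested genes passed the same test with Valproate, 2.73% higher and 2.55% lower. Counted without a test, 8 of the 29 had both Valproate libraries above both NC libraries and 5 had both below, and the shares over all genes were 23% and 27.6%. The share above was 27.6% of the 29 and the share below 17.2%. The median log2 change of the 29 was 0.25, against -0.02 for all genes. At an unadjusted p under 0.05, 8 of the 29 genes passed, and 24.1% of all genes did.

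Rest and Rcor1 did not pass the test with any compound. Rest, on chromosome 5 (77265491 to 77286432, plus strand), was at 5817 and 5094 in NC, against 6305 and 4807 with Valproate, where the groups overlapped. The log2 change was 0.02 (SE 0.33, 95% interval -0.691 to 0.724, adjusted p = 0.996, limma, Benjamini-Hochberg), an interval that leaves room for a change of either sign. Rcor1, on chromosome 12 (111039351 to 111115901, plus strand), was at 1638 and 1585 in NC, against 1459 and 1630 with Valproate, also overlapping. Its log2 change was -0.06 (95% interval -0.474 to 0.348, adjusted p = 0.896, limma, Benjamini-Hochberg). Over the 10 compounds the log2 change of Rest ran from -0.11 to 0.34 and that of Rcor1 from -0.32 (DZNep) to 0.15. With DZNep the libraries of Rest were 7651 and 3414, the widest gap of any group.

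Of the 15 listed REST targets tested, 0 rose and 2 (Cplx1 and Stmn3) fell with Valproate, beside 2.73% and 2.55% of all genes. Without a test, 4 of the 15 (26.7%) had both libraries above NC and 4 had both below, near the 23% and 27.6% of all genes. Their median log2 change was 0.22, and the range was -2.04 to 4.87. The highest value of that range belongs to Syt4, which was at 0 and 1091 in NC, against 903 and 1033 with Valproate, and it is set by the single NC library at 0. Without NC number 2 Syt4 passed the test (9.92, adjusted p = 0.0298, limma, Benjamini-Hochberg), so that 1 of the 15 rose, and without NC number 1 its change was -0.18.

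**Figure D2:**
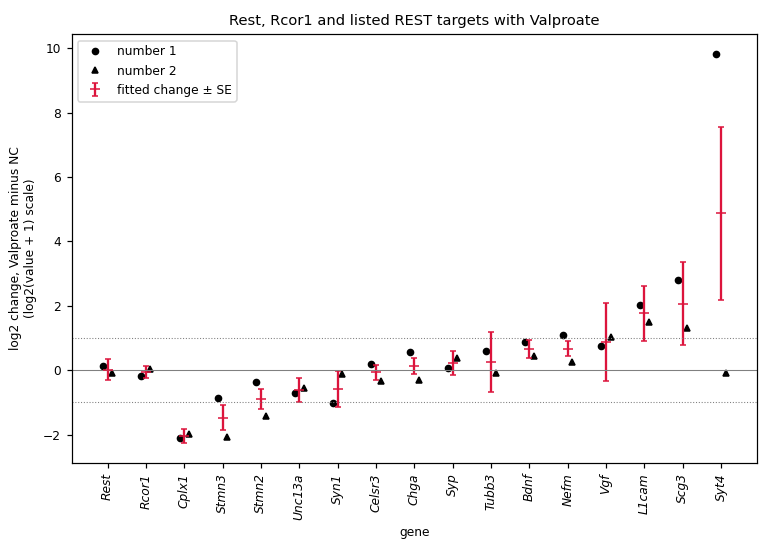
Log2 change from NC to Valproate of Rest, Rcor1 and the 15 tested REST targets, with the change within number 1 and within number 2 as points, the fitted change with its standard error, and dotted lines at -1 and 1. Cplx1 and Stmn3 lie below -1 in the fit (-2.04 and -1.47), Rest and Rcor1 lie near 0 (0.02 and -0.06), and Syt4 differs between the numbers (9.82 and -0.08).

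The granule genes Scg3, Bdnf, Chga and Vgf, which encode secretory granule proteins and a neurotrophin carried in such granules, did not pass the test with Valproate. Scg3 was at 4 and 15 in NC, against 34 and 39 with Valproate, above all 20 other libraries (log2 change 2.06, adjusted p = 0.35, limma, Benjamini-Hochberg). Bdnf was at 31 and 35 in NC, against 58 and 48 with Valproate. Chga (139 and 242 against 208 and 194) and Vgf (5 and 29 against 9 and 60) overlapped between the groups. Among the other vesicle genes, Syp, a membrane protein of synaptic vesicles, was at 34 and 23 in NC and 36 and 30 with Valproate. Syn1, which tethers vesicles, was at 409 and 575 and then at 200 and 526, and it overlapped as well. Unc13a, a priming factor, was at 1371 and 923 in NC, against 843 and 629 with Valproate, with no overlap and a log2 change of -0.63 (adjusted p = 0.322, limma, Benjamini-Hochberg).

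Of the cytoskeletal and adhesion genes among the REST targets, Stmn3 passed the test with Valproate, as given above, and the others did not. Stmn2 was at 3082 and 5970 in NC, against 2372 and 2214 with Valproate, below both NC libraries. Its log2 change was -0.90 (SE 0.32, adjusted p = 0.0897, limma, Benjamini-Hochberg), and without NC number 1 it became -1.38 (adjusted p = 0.0349), past the threshold. The neurofilament gene Nefm was at 207 and 322 and then at 441 and 384, a log2 change of 0.67 (adjusted p = 0.079, limma, Benjamini-Hochberg). L1cam, an adhesion molecule of growing axons, was at 10 and 17 in NC, against 44 and 50 with Valproate, above all 20 other libraries (log2 change 1.77, adjusted p = 0.23, limma, Benjamini-Hochberg). Tubb3 (947 and 2771 against 1431 and 2582) and the cadherin gene Celsr3 (395 and 650 against 455 and 516) overlapped between the groups.

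3 genes outside the REST list were chosen after their values were seen, for their distance from NC. Ncam1, a neural cell adhesion molecule, was at 1022 and 902 in NC, against 1535 and 1489 with Valproate (log2 change 0.65, adjusted p = 0.0972, limma, Benjamini-Hochberg). Syt11, a synaptotagmin, was at 225 and 229 and then at 347 and 294 (0.49, adjusted p = 0.158). Gap43, a growth cone protein, was at 58 and 109 and then at 5 and 42 (-2.33, adjusted p = 0.242). None of these 3 passed the test of limma, although each had both Valproate libraries beyond both NC libraries.

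With DZNep more of the genes were called than with any other compound, 7 of 29 (24.1%), and it was also the compound with the most calls over the table, 11.4% of all genes tested, 5.27% higher and 6.14% lower. Vgf, Nefm and Sntg1 rose, and Stmn2, Bdnf, Cplx1 and Elavl4 fell. Both libraries lay above NC for 8 genes and below it for 10, beside 26.5% and 32.4% of all genes. The median log2 change of the 29 was -0.12, against -0.04 for all genes. Of the 15 REST targets 2 rose (Vgf and Nefm) and 3 fell (Stmn2, Bdnf and Cplx1), with Rest itself at a log2 change of -0.09 (adjusted p = 0.88, limma, Benjamini-Hochberg).

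Vgf, on chromosome 5 (137026392 to 137033351, plus strand), encodes a secreted granule peptide precursor. NC libraries had 5 and 29 and DZNep libraries 294 and 344, while no library of another group exceeded 69. The log2 change was 4.57 (SE 1.21, adjusted p = 0.0145, limma, Benjamini-Hochberg), and with a pseudocount of 10 in place of 1 it was 3.76. Leaving out NC number 1 lowered it to 3.41 (adjusted p = 0.158), and leaving out DZNep number 1 or 2 gave adjusted p = 0.0521 and 0.056. Bdnf, the other granule gene that changed (chromosome 2, 109674700 to 109727007, plus strand), had values of 31 and 35 in NC, and DZNep gave 15 and 16, the lowest of all groups. Its log2 change was -1.04 (SE 0.29, adjusted p = 0.0178, limma, Benjamini-Hochberg), close to the fold limit of 2, and it missed a threshold without DZNep number 1 (-0.998, adjusted p = 0.0678), NC number 1 (-1.13, adjusted p = 0.0652) or NC number 2 (-0.96, adjusted p = 0.0862).

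Of the 7 vesicle genes tested with DZNep, Cplx1 alone passed the test. It was at 45 and 79, against 274 and 243 in NC, a log2 change of -2.09 (SE 0.22, adjusted p = 3.79e-05, limma, Benjamini-Hochberg). Rab3a, a small GTPase of synaptic vesicles named here after its values were seen, was at 447 and 324 in NC and at 282 and 279, lower than in any other group, and did not pass (log2 change -0.44, adjusted p = 0.121). The cytoskeletal genes moved in both directions. Stmn2, on chromosome 3 (8509360 to 8561606, plus strand), was at 1366 and 1537 with DZNep, below the other 20 libraries (log2 change -1.57, SE 0.32, adjusted p = 0.00295, limma, Benjamini-Hochberg). Nefm, on chromosome 14 (68082590 to 68124846, minus strand), had 207 and 322 in NC, and the DZNep libraries had 622 and 551, a log2 change of 1.18 (SE 0.23, adjusted p = 0.00221, limma, Benjamini-Hochberg). Without NC number 1 the Nefm change was 0.86, and against the mean of the other 10 groups it was 0.59, both under the fold limit.

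Elavl4, on chromosome 4 (110203722 to 110351909, minus strand), encodes an RNA-binding protein of neurons (HuD) and fell with DZNep. The NC values were 83 and 52 and the DZNep values 20 and 22, the lowest of all groups, with a log2 change of -1.60 (SE 0.32, adjusted p = 0.00277, limma, Benjamini-Hochberg). Its relative Elavl3 overlapped between the groups (28 and 61 against 14 and 35). Sntg1, on chromosome 1 (8361475 to 9299878, minus strand), encodes a syntrophin, an adaptor of the membrane cytoskeleton. It was at 2 and 2 in NC, against 773 and 708 with DZNep (log2 change 7.95, SE 2.05, adjusted p = 0.0124, limma, Benjamini-Hochberg), and with a pseudocount of 10 the change was 5.97. NC was the lowest group for this gene and with 6 other compounds both libraries were also at 318 or more. Against the mean of the other 10 groups it was 2.62 (adjusted p = 0.207, limma, Benjamini-Hochberg), and its adjusted p was 0.0529, 0.0702 and 0.0517 without DZNep number 1, NC number 1 and NC number 2. Of the 7 calls with DZNep, those of Stmn2, Cplx1 and Elavl4 passed whichever library was left out, and in a fit of the DZNep and NC libraries alone they did not pass (adjusted p = 0.128, 0.102 and 0.128, limma, Benjamini-Hochberg).

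With Bromosporine, Bdnf rose and Cplx1 and Adgrb3 fell, 3 of 29 genes (10.3%), and 3.34% of all genes tested were called, 0.573% higher and 2.77% lower. Cplx1 was at 124 and 99, against 274 and 243 in NC, with a log2 change of -1.21 (SE 0.22, adjusted p = 0.0073, limma, Benjamini-Hochberg). Without Bromosporine number 2 it was -1.05 (adjusted p = 0.0572), without NC number 1 it was -1.13 (adjusted p = 0.0802), and against the mean of the other 10 groups it was -0.47. Bdnf was at 71 and 72, with no overlap, and its log2 change of 1.09 (SE 0.29, adjusted p = 0.042, limma, Benjamini-Hochberg) missed the threshold when any of the 4 libraries was left out (adjusted p = 0.1105 to 0.2365). Adgrb3, on chromosome 1 (25067476 to 25829707, minus strand), encodes an adhesion receptor of neurons. NC libraries had 868 and 514 and both Bromosporine libraries were listed at 0 (adjusted p = 0.00988, limma, Benjamini-Hochberg), so no fold is given. Its adjusted p was 0.065 without Bromosporine number 1 and 0.0863 without NC number 1.

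Map2, which rose with Valproate, was also higher with Bromosporine, at 200 and 148 against 108 and 73. Its log2 change of 0.95 had an adjusted p of 0.0242 (limma, Benjamini-Hochberg) and was under the fold limit of 2. Syp, named after its values were seen, was at 68 and 60 with Bromosporine, above the other 20 libraries, where it did not exceed 41 (log2 change 1.16, adjusted p = 0.086). Both libraries lay above NC for 8 genes and below it for 4, against 26.4% and 23% of all genes. The 15 REST targets held 1 that rose (Bdnf) and 1 that fell (Cplx1) in the test, beside 0.573% and 2.77% of all genes.

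With OICR, Nefm was the only gene of the 29 that passed the test, and 0.388% of all genes did, 0.127% higher and 0.26% lower. It was at 596 and 650, against 207 and 322 in NC, a log2 change of 1.27 (SE 0.23, adjusted p = 0.0265, limma, Benjamini-Hochberg). Leaving out NC number 1 gave 0.95 (adjusted p = 0.289), and leaving out OICR number 1 or 2 gave adjusted p = 0.0966 and 0.211. Against the mean of the other 10 groups it was 0.69. UNC0379 gave nearly the same values for Nefm, 501 and 754, with a log2 change of 1.25, and its adjusted p was 0.167, while 0% of all genes passed with that compound. NC had the lowest mean of Nefm among the 11 groups (264.5). An annotated Nefm transcript runs across the neighbouring gene Nefl on the opposite strand, 30.4% of the 31-base stretches of the longest Nefm transcript occur in another gene, and the labels do not say that strand was kept, so reads of this pair may be split between them. Nefl itself was at 950 and 1099 in NC, 1526 and 1352 with DZNep and 1590 and 2266 with OICR.

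The other 6 comparisons gave 0 calls among the 29 genes, and few of all genes were called. The shares were 0.0174% with Chaetocin (0.0116% higher and 0.00579% lower), 0.00579% with CPTH2 and with Garcinol (all of it higher), 0.116% with IOX1 (0.0347% higher and 0.081% lower), 0.973% with MS023 (0.388% higher and 0.585% lower) and 0% with UNC0379. At an unadjusted p under 0.05 in limma, 4 genes passed with Chaetocin, 1 with CPTH2, 3 with Garcinol, 5 with IOX1, 6 with MS023 and 2 with UNC0379. The shares of all genes at that limit were 4.72%, 0.944%, 3.62%, 12.4%, 15% and 6.08%. Sntg1, at 2 and 2 in NC, was among them with each of the 6 compounds. Nefm and Bdnf were among them with Chaetocin, Garcinol and IOX1, Bdnf with MS023 and Nefm with UNC0379, each higher than in NC. With Chaetocin both libraries of Nefm (394 and 454) and of Bdnf (50 and 54) were above both NC libraries. Adgrb3, also among them with Chaetocin, went the other way (868 and 514 in NC, against 0 and 635). NC had the lowest group mean of Nefm, and only DZNep had a lower mean of Bdnf than NC.

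In the same 7 comparisons, OICR included, the genes with both libraries beyond both NC libraries were counted without a test. OICR had 7 above and 3 below, beside 21.4% and 18.7% of all genes. MS023 had 7 and 5 (21.8% and 23.6%), IOX1 6 and 3 (19.4% and 24.2%) and UNC0379 6 and 1 (17.2% and 17.6%). Chaetocin had 5 and 1 (14% and 20%), Garcinol 2 and 3 (16.2% and 17.4%) and CPTH2 2 and 1 (8.19% and 7.96%). Sntg1, at 2 and 2 in NC, is counted as above in all 7, and with OICR it was only at 3 and 3. Stmn3, named after its values were seen, was above both NC libraries (83 and 201) with MS023 (318 and 284) and OICR (294 and 343), the opposite side from Valproate, and passed in neither (adjusted p = 0.14 and 0.184, limma, Benjamini-Hochberg).

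**Figure D3:**
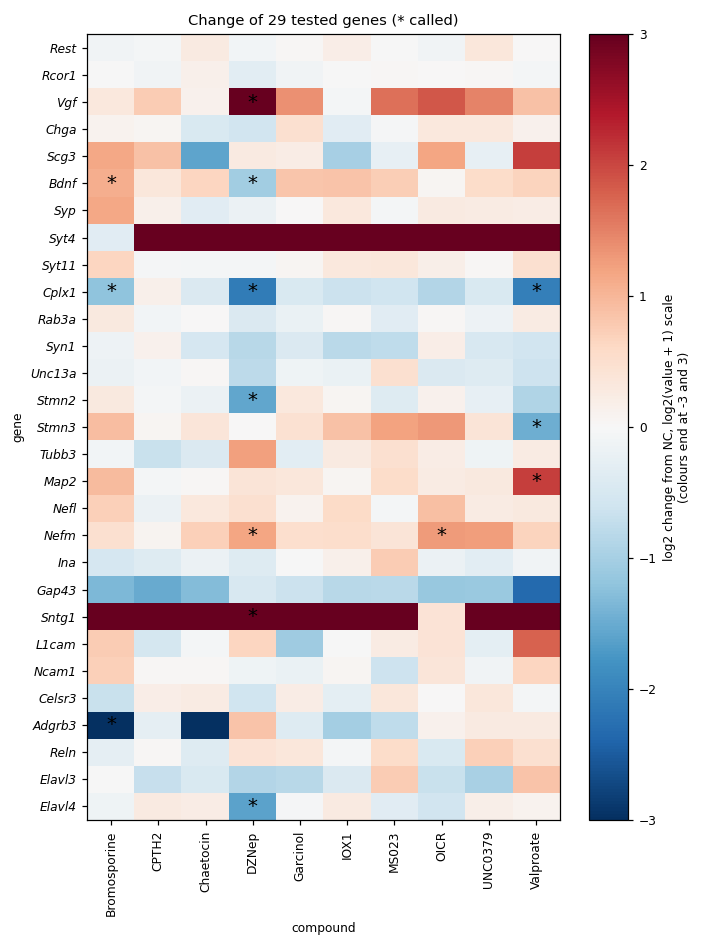
Log2 change from NC of the 29 tested genes (rows) with the 10 compounds (columns), with colours ending at -3 and 3 and an asterisk where the gene was called. The 14 asterisks fall on 10 genes, with Cplx1 called lower with 3 compounds, and Sntg1 is high in most columns where NC was at 2 and 2.

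Across the 10 compounds there were 290 pairs of gene and compound, and 14 of them were called, 6 higher and 8 lower. That is 4.83% of the pairs, beside 2.15% over all genes, for a list drawn up with earlier results of these data known. 19 genes were called with no compound, 7 with 1, 2 (Nefm and Bdnf) with 2 and 1 (Cplx1) with 3. The 10 comparisons share the NC libraries, so a pair of high or low NC values enters all of them. Among the called genes besides Nefm, exons of Map2 and Bdnf overlap those of the annotated genes Gm10558 and Gm45346 on the opposite strand, and 0.578% and 11.3% of the 31-base stretches of their longest transcripts occur in other genes, so their reads may be shared in part.

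Cplx1 was lower than both NC libraries with every compound except CPTH2. DZNep (45 and 79) and Valproate (63 and 61) were lowest and overlapped each other. Bromosporine (124 and 99) lay above both and overlapped OICR (123 and 158). IOX1 followed with 171 and 159 and MS023 with 171 and 172, and with OICR, IOX1 and MS023 it was not called. CPTH2, at 300 and 275, was above the other 20 libraries. Bdnf moved in opposite directions with the compounds that changed it, from 15 and 16 with DZNep to 71 and 72 with Bromosporine, against 31 and 35 in NC. NC was low for this gene, and both libraries were also above NC with Chaetocin, Garcinol, IOX1, MS023, UNC0379 and Valproate. Against the mean of the other 10 groups its log2 change with Bromosporine was 0.73, under the fold limit. The calls are all against the same NC libraries, and Bromosporine and DZNep were not compared with each other by a test.

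The number of genes for which a group had both libraries above or below the other 20 gives a view that does not lean on NC alone. With Valproate Scg3, Map2 and L1cam were highest and Stmn3 lowest, and 5.92% and 3.73% of all genes were so placed. With DZNep Vgf and Adgrb3 were highest and Stmn2, Bdnf, Rab3a and Elavl4 lowest, beside 8.85% and 8.52% of all genes. Bromosporine was highest for Syp and Bdnf (3.12% of all genes), CPTH2 highest for Cplx1 (0.208%) and MS023 lowest for Ncam1 (2.15%). NC was at neither end for any of the 29.

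3 genes switched between values near 0 and values of 291 or more with nothing between. Syt4, a synaptotagmin of neurosecretory vesicles, was at 0 in NC number 1 and Bromosporine number 1 and at 384 to 1294 in the other 20 libraries. Adgrb3 was at 0 in both Bromosporine libraries and in Chaetocin number 1 and at up to 1278 elsewhere, with 291 as the lowest of these. Sntg1 was at 2 to 3 in 6 libraries (both of NC and of OICR, Bromosporine number 1 and Valproate number 2) and at 318 to 994 in the other 16. In Chaetocin, Bromosporine, NC and Valproate libraries of the same group thus lay on either side for at least 1 of these genes. A 0 in a normalised table can come from the counting or the scaling, and whether it did so here was not tested.

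**Figure D4:**
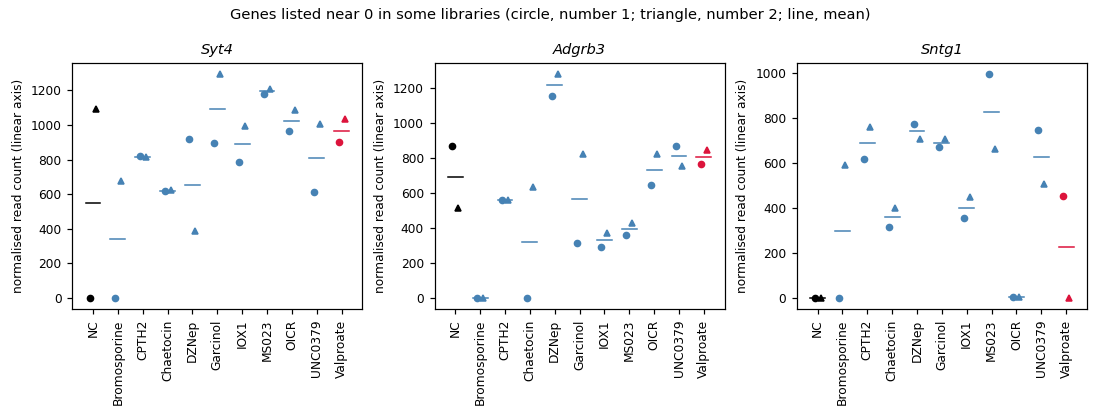
Normalised read counts (linear axis) of Syt4, Adgrb3 and Sntg1 in the 11 groups, with a circle for number 1, a triangle for number 2 and a line at the mean. Points sit near 0 or above 290, and the 2 libraries of a group can lie on opposite sides, as for Syt4 in NC (0 and 1091).

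The 2 libraries of a group differed in a like direction for some of the genes. Of the 29, 7 (24.1%) were higher in number 2 than in number 1 in all 11 groups, against 12.3% of all genes, and 2 (6.9%) were lower in all 11, against 8.75%. The 7 were Vgf, Tubb3, Ina, Gap43, L1cam, Syn1 and Elavl3, and the 2 were Rest and Unc13a. Among these 9, Tubb3 had the widest gap, with a median difference of 1.55 on the log2 scale and values such as 566 and 2535 with Chaetocin. What the numbers stand for was not given in the labels. These gaps within groups are part of the error of each test for these genes.

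**Figure D5:**
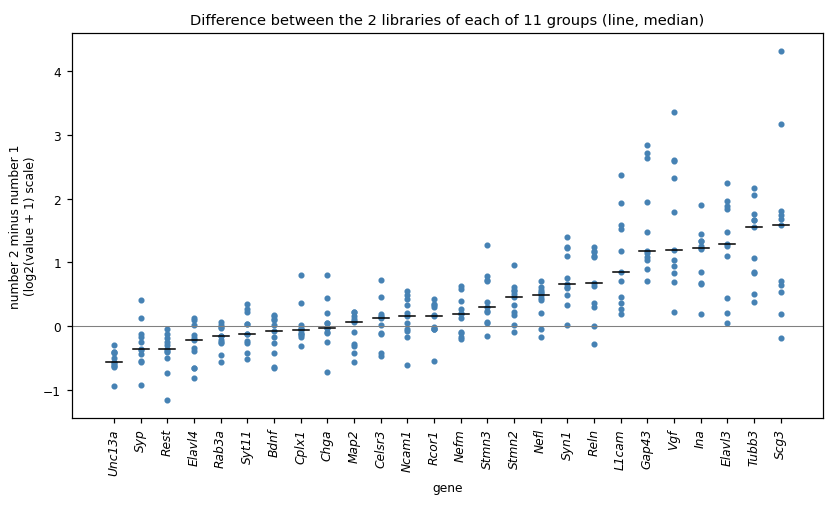
Difference of number 2 minus number 1 on the log2(value + 1) scale for 26 genes, with a point for each of the 11 groups and a line at the median. All 11 points lie above 0 for Tubb3 (median 1.55) and below 0 for Rest.

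The corepressor genes of the REST pathway were measured as a group. Of 13 genes that encode further members or partners of the REST complexes, such as Rcor2, Kdm1a and Sin3a, all were tested and 0 changed with Valproate or Bromosporine. The shares of all genes called with these compounds were 5.28% and 3.34%. With DZNep 1 rose and 0 fell, beside 5.27% and 6.14% of all genes. The gene that rose was the deacetylase gene Hdac2, from 5685 and 5871 to 13597 and 10924 (log2 change 1.08, SE 0.21, adjusted p = 0.00216, limma, Benjamini-Hochberg). The median log2 change of the 13 was 0.09 with Valproate and -0.28 with DZNep, against -0.02 and -0.04 for all genes.

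A second list of REST targets, of which 13 of 24 were tested, held 0 that rose with Valproate and 1 that fell, beside 2.73% and 2.55% of all genes. That gene was Cdk5r2, an activator of the kinase CDK5, at 427 and 623 in NC and 126 and 292 with Valproate (log2 change -1.42, adjusted p = 0.0366, limma, Benjamini-Hochberg). With DZNep 0 rose and 3 fell, Mapk8ip1 and Bsn among them, beside 5.27% and 6.14% of all genes. Mapk8ip1, a scaffold of JNK signalling, went from 721 and 1085 to 302 and 350, and Bsn, a scaffold of the presynaptic active zone, from 62 and 72 to 27 and 28. Bromosporine changed 0 of the 13, beside 3.34% of all genes.

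Of 34 other neuronal genes tested, 1 rose and 2 fell with Valproate, beside 2.73% and 2.55% of all genes. Syngr3, of the vesicle membrane, went from 27 and 22 to 86 and 73 (log2 change 1.66, adjusted p = 0.031, limma, Benjamini-Hochberg). Gad2, which makes GABA, went from 230 and 152 to 57 and 72, and Nlgn2, an adhesion protein of inhibitory synapses, from 2482 and 2179 to 1028 and 1175 (adjusted p = 0.0114 and 0.000346, limma, Benjamini-Hochberg). DZNep raised 2 of the 34 (Dlg4 and Nrcam) and lowered 3 (Gad2, Nlgn2 and Camk2b), beside 5.27% and 6.14% of all genes. Bromosporine lowered 2 (Gad2 and Mapt), beside 2.77%, and MS023 lowered 2 (Rims1 and Camk2b), beside 0.585%. Gad2 libraries had 46 and 51 with Bromosporine and 39 and 94 with DZNep against the same NC libraries.

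Among the markers of other cells, Thy1, which neurons and fibroblasts both carry, went from 12 and 11 in NC to 358 and 303 with Valproate, and the fibroblast matrix gene Lum was listed at 0 and 0 in NC and at 197 and 331. These 2 of the 6 fibroblast markers tested rose with Valproate and 0 fell, beside 2.73% and 2.55% of all genes. Lum passed the filter on low values only through its Valproate libraries. Its call therefore adds nothing to its values, and the count of 2 cannot be weighed against these shares. Of the rest, Pdgfrb was at 217 and 108 in NC, against 59 and 54, Col1a1 at 24 and 24, against 14 and 25, Col1a2 at 14 and 31, against 20 and 41, and Postn at 474 and 559, against 658 and 0. Dcn stayed at 0 and was not tested, and Lum was also at 346 in CPTH2 number 1. Of the 4 neural progenitor markers, 1 fell with Valproate, beside 2.55% of all genes. With DZNep 1 rose and 2 fell, beside 5.27% and 6.14% of all genes. Sox1, a neural progenitor gene, was at 742 and 514 in NC, 252 and 283 with Valproate and 225 and 204 with DZNep. Nes was at 1555 and 1613 in NC, 1600 and 1606 with Valproate and 715 and 543 with DZNep. Neurod1 rose with DZNep from 44 and 91 to 414 and 186. The stem cell gene Utf1 rose with Valproate (1283 and 1467 to 3558 and 3309), DZNep, Bromosporine and OICR in the same test. Whether cells of another type contributed to the values of Map2 or the other genes was not tested.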

How the data were processed

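RNA-seq of E14 ESCs was analysed in 22 libraries of 11 groups, assigned from the labels. The deposited values are scores, here read counts that the authors normalised with EDASeq at its full setting and rounded to whole numbers. Per the submitters' processing notes and the study's methods, reads were aligned with Bowtie2 2.2.5 to mm10 and counted with RSEM. Which counting route gave the table, and the depth of each library, are not given in the sources used here. Full scaling hides differences in total RNA and can give identical values in different libraries. A second deposited table holds the authors' group means and was not used.

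The log2(value + 1) of each gene entered limma 3.58.1 under R 4.3.3 (lmFit with 11 group means, eBayes with trend, 11 residual degrees of freedom). Genes with at least 10 in at least 2 libraries were kept (17275 of 18487), two-sided p-values were adjusted by Benjamini-Hochberg within each contrast, and a call needed both a fold over 2 and an adjusted p below 0.05. Values are not raw counts, so no count model was run. Genes were named when called, and Rest, Rcor1 and the REST targets were named for Valproate whatever their result. Members and lists were chosen with earlier results of these data known. The values of a gene on the second list of REST targets are not reported here. The fit was tested on simulated data. Gene positions and transcript lengths came from GENCODE M21 and promoter windows from RefSeq. Python 3.11.15 was used for sequences and plots. The alternatives were a pseudocount of 10, no filter, only the compound and NC libraries, a replicate block, median-ratio rescaling, the mean of the other groups as reference, adjustment over all 10 contrasts and leaving out each library.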

Additional observations from a re-analysis of the deposited data

How the results depend on the processing

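Depth is unknown and each group has 2 libraries, which limits the precision of every change, most of all in genes of wide spread. Rescaling by median ratios moved the median of all genes by at most 0.0358 on the log2 scale. With only the compound and NC libraries in the fit, the members called numbered 0 with Valproate, 1 with DZNep, 1 with Bromosporine and 0 with OICR, and 1 (Sntg1) with each of Chaetocin, CPTH2, Garcinol, IOX1, MS023 and UNC0379. The calls of Map2 and Cplx1 with Valproate and of Stmn2, Cplx1 and Elavl4 with DZNep were lost under no other alternative. Adjustment over all 10 contrasts gave 4 with DZNep and 1 with UNC0379 (Nefm). Against the mean of the other 10 groups, OICR gave 0. Leaving out a library each gave 2 to 4 with Valproate, 3 to 6 with DZNep, 1 to 3 with Bromosporine and 0 to 1 with OICR, Chaetocin and MS023. The call of Bdnf with Bromosporine was lost under 9 of 11 alternatives and that of Bdnf with DZNep under 7. The cause of these shifts was not tested. Fits of the compound and NC libraries alone, and fits that leave out a library, hold fewer libraries than the main fit. With the replicate number as a block, Valproate gave 5 (Gap43 and L1cam added), MS023 2, OICR 2 and UNC0379 1, while DZNep gave 8 and Bromosporine 4. With Bromosporine the share of all genes called was 3.34% in the main fit and 6.88% with the block. It was 0.741% with only the Bromosporine and NC libraries, so its counts of members moved along with those of all genes. For the other compounds the shares of all genes under these alternatives are not given here. The labels do not say what the number stands for, and libraries of the same number were not treated as pairs. Over 55 pairs of groups, deviations of same-numbered libraries correlated at 0.0535 to 0.298 (median 0.196).

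Among genes with Valproate, the sign turned against the mean of the other groups for Rest (-0.031) and Vgf (-0.33). Leaving out a library turned it for Rest (-0.18 to 0.21), Rcor1 (-0.14 to 0.017), Syp (-0.048 to 0.50), Syt4 (-0.18 to 9.92), Vgf (-0.42 to 2.18), Chga (-0.27 to 0.53), Tubb3 (-0.53 to 1.02), Celsr3 (-0.42 to 0.29) and Syn1 (-1.27 to 0.12), none of which was called with Valproate. Syt4 passed the test without NC number 2 (9.92, limma adjusted p = 0.0298) and not without NC number 1 (-0.18).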
